A study of Mus musculus with 6 samples.

Results

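The genes described here build the contractile machine of striated muscle: 41 genes of the sarcomere, of the triad that couples excitation to calcium release, and of the neuromuscular junction. They were chosen by name because muscle genes had been higher in mutant cells in these same data, and all 41 were found by identifier among the 37991 gene rows. Counts of calls among them are therefore a description of the choice and support nothing by themselves. RNA was sequenced from cells that carried Nestin-GFP fluorescence and were sorted out of dermis, with its white fat still attached, of mouse pups aged 3 days. The mutant group, 3 mice, was labelled Nes-GFP;Nes-Cre;PDGFRα+/[S]D842V: it carried the Nestin-GFP reporter, the Nestin-Cre recombinase and, on 1 allele of Pdgfra, the activating mutation D842V. The control group, 3 mice, was labelled Nes-GFP+ cells and carried the reporter, with no Cre named, so the recombinase and the allele cannot be told apart. Cre and reporter are both driven by Nestin regulatory sequence, which is active in pericytes and also in other cells, satellite cells of muscle among them.

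In a sarcomere, thick filaments of myosin pull on thin filaments of actin, and a troponin complex on the thin filament makes the pull depend on calcium. Titin and the proteins of the Z disc and M band hold the filaments in register. At the triad a voltage sensor in the transverse tubule opens the ryanodine receptor, and a pump returns the calcium to its store. The acetylcholine receptor at the junction starts each twitch. Many of these proteins have early isoforms, used by newly formed fibres, and adult isoforms that replace them. Mouse skin has its own sheet of skeletal muscle, the panniculus carnosus, below the fat.

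The libraries held 11912469 to 18792939 gene counts, and a count of 0 allows up to 0.16 to 0.252 CPM (CPM is the read count scaled to the size of its library, here with TMM factors), for counting error only. The labels give 3 mice and 3 libraries for each group without saying which mouse gave which library, and the libraries were taken as 1 mouse each. Pdgfra itself fell in mutant cells, with 358 ± 11.9 CPM against 844 ± 21.1 CPM in control cells (SD, n = 3 each; edgeR adjusted p = 2.75e-06). Pericyte markers were present in every library: the 11 listed genes summed to 1108 to 1400 CPM in mutant libraries and 1129 to 1405 CPM in control libraries. Set against that, the 41 muscle genes were rare, at 0.0148% to 0.0407% of all gene counts in a library. Their summed level was 284 to 404 CPM in mutant libraries and 151 to 163 CPM in control libraries.

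Members called higher in mutant cells were found in each structure: 4 of 7 thick filament genes, 8 of 10 thin filament genes, 2 of 5 scaffold genes, 4 of 5 assembly and energy genes, 2 of 8 triad genes and 4 of 6 junction genes. A gene was called when the edgeR quasi-likelihood test gave an adjusted p (Benjamini-Hochberg over all 15035 genes tested) under 0.05. Of the 41 members, 36 had enough counts to be tested, 24 were called higher and 0 lower. Across all genes tested, 8.63% were called higher and 9.13% lower. At an unadjusted p under 0.05, edgeR put 29 members higher and 0 lower, while DESeq2 called 24 and limma-voom 23 higher and both called 0 lower. Every mutant library lay above every control library in 28 of the 41 members, which was so for 19.2% of all genes tested. The 28 include Cacng1 and Trdn, which were too low to be tested, whereas the 19.2% covers tested genes only. With no filter on low counts the median log2 fold change over all 41 was 1.27 (1.24 with Tnnc1, which had 1 read in all, placed lowest), beside 0.01 over 24128 genes. Since whole sorted populations were sequenced, more cells of a kind and more RNA per cell cannot be told apart.

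**Figure D1:**
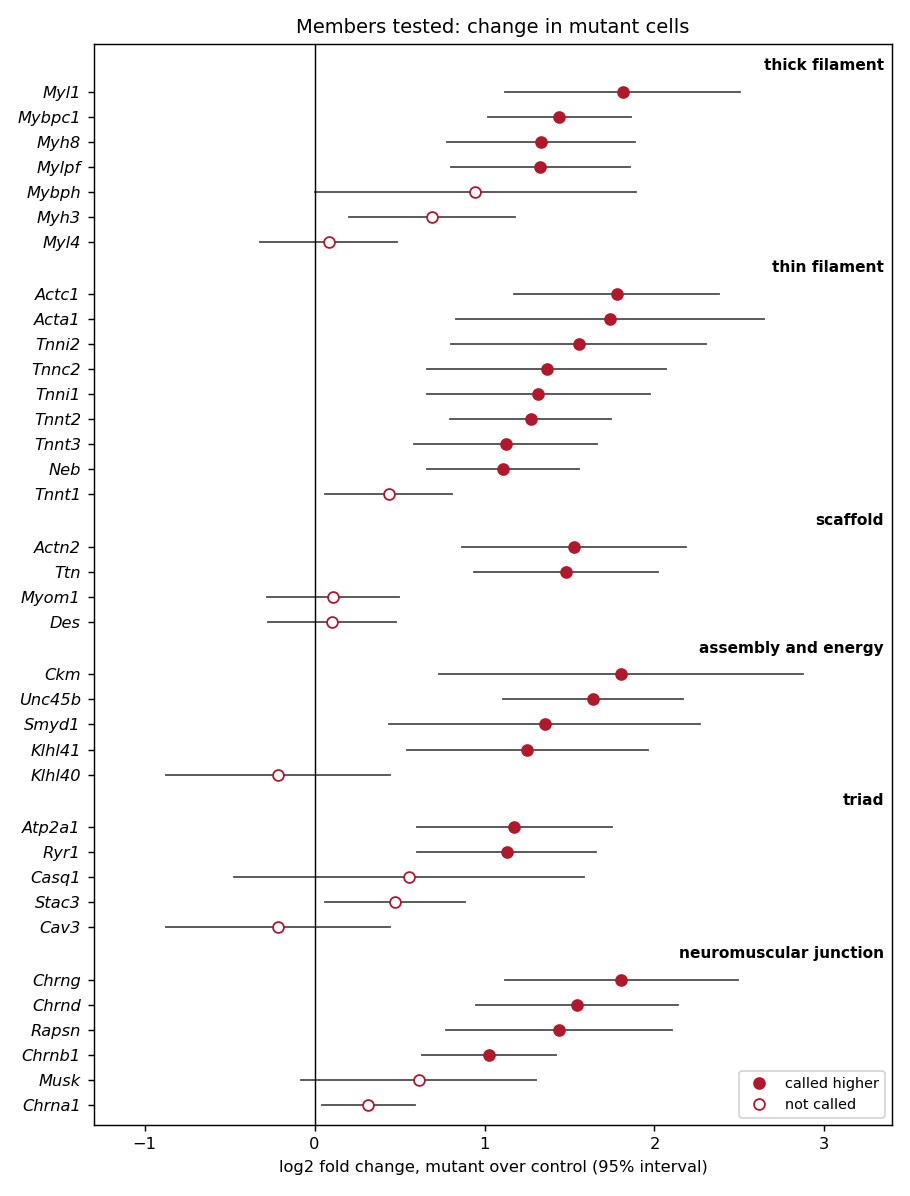
Log2 fold change, mutant over control, of the 36 members tested, grouped by structure, with 95% intervals from the edgeR fit; filled points were called and open points were not. Most genes of the thick and thin filaments lie between 1 and 2, while Myl4, Myom1, Des, Klhl40 and Cav3 lie near 0.

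Among the 7 thick filament genes, 4 were called higher, beside 8.63% of all genes tested: Mybpc1, Myh8, Myl1 and Mylpf. Mybpc1, the slow form of myosin binding protein C, was the most abundant of the class, with 8.93, 12.9 and 15.2 CPM in the mutant libraries and 4.16, 4.78 and 4.74 CPM in the control libraries. The groups did not overlap, and its log2 fold change was 1.44 (SE 0.19). Myh8, the perinatal myosin heavy chain, had 4.5, 4.68 and 6.65 CPM in mutant libraries against 2.37, 1.34 and 2.5 CPM in control libraries (log2 fold change 1.33, SE 0.26). Myh3, the embryonic heavy chain, had 6.98, 9.69 and 10.1 CPM in mutant libraries and 7.3, 3.94 and 5.25 CPM in control libraries. One mutant library thus fell below the highest control library, and Myh3 was not called (0.69, SE 0.22). It was called without control replicate 1 (0.94), without mutant replicate 1 (0.83), with DESeq2 (0.68) and with no filter (0.69). Of the 3 light chain genes, Myl1 and Mylpf were called and Myl4 was not. Myl1, the essential light chain of fast fibres, averaged 4.68 ± 1.4 CPM in mutant cells and 1.36 ± 0.521 CPM in control cells (log2 fold change 1.81, SE 0.32), and Mylpf, the fast regulatory light chain, 5.71 ± 1.78 and 2.28 ± 0.248 CPM (1.33, SE 0.24). Myl4, the light chain of embryonic muscle and atrium, had 4.9, 4.42 and 5.23 CPM in mutant libraries against 5.44, 4.11 and 4.16 CPM in control libraries, with overlapping groups and a log2 fold change of 0.08 (SE 0.18). Mybph, myosin binding protein H, stayed under 1.4 CPM in every library and was not called (0.95, SE 0.44); it shares annotated exon sequence with Adora1 on the other strand, which was too low to be tested.

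Of the 9 thin filament members tested, 8 were called higher, beside 8.63% of all genes tested, in a list chosen because muscle genes rose. The tropomyosin genes, which are not members, had log2 fold changes of -0.42 (Tpm1, called lower), -0.22 (Tpm2, not called) and -0.10 (Tpm3, not called). Actc1, the cardiac alpha-actin that early skeletal muscle also uses, was the most abundant of all members. It had 63.8, 70.9 and 98.4 CPM in mutant libraries and 16.6, 27.1 and 24.7 CPM in control libraries (log2 fold change 1.78, SE 0.24). Acta1, the skeletal alpha-actin of mature fibres, had 21, 17.3 and 27 CPM in mutant libraries against 3.39, 9.31 and 7.17 CPM in control libraries (1.74, SE 0.37). For both actins the lowest mutant library lay well above the highest control library. Acta1 was not called without control replicate 3 (1.81), without mutant replicate 1 (1.75), 2 (1.88) or 3 (1.55), or with no filter (1.73). Neb encodes nebulin, the giant protein that runs along the thin filament, and had 11.9, 14.8 and 21.6 CPM in mutant libraries and 7.24, 7.97 and 7.3 CPM in control libraries (1.11, SE 0.20).

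The troponin genes rose with the actins, apart from slow troponin T and a cardiac and slow troponin C that was hardly present. Tnnt2, the troponin T of heart and embryonic skeletal muscle, had 7.18, 6.83 and 9.82 CPM in mutant libraries against 2.43, 3.44 and 4.03 CPM in control libraries (log2 fold change 1.27, SE 0.22). Tnnt3, the fast form, had 3.83, 5.14 and 5.81 CPM in mutant libraries and 2.56, 1.51 and 2.62 CPM in control libraries (1.12, SE 0.25). Tnnt1, the slow form, had 9.6, 6.96 and 9.29 CPM in mutant libraries and 7.04, 5.37 and 6.59 CPM in control libraries, so that the groups overlapped, and it was not called (0.44, SE 0.17) except without mutant replicate 2 (0.57). The inhibitory subunits were both called. Tnni1, slow, had 2.42, 1.95 and 2.11 CPM in mutant libraries against 0.576, 1.01 and 1.02 CPM in control libraries (1.32, SE 0.30). Tnni2, fast, had 1.81, 2.67 and 3.75 CPM in mutant libraries against 0.705, 1.34 and 0.832 CPM in control libraries (1.55, SE 0.35), a call not made without control replicate 3 (1.47) or mutant replicate 3 (1.25). The calcium sensor of fast fibres, Tnnc2, had 2.75, 2.73 and 5.02 CPM in mutant libraries against 0.961, 1.34 and 1.79 CPM in control libraries (1.36, SE 0.32; not called without mutant replicate 3, 1.00). Tnnc2 shares annotated exon sequence with Ube2c on the other strand, and whether reads were counted by strand is not stated by the sources used here; Ube2c was not called (log2 fold change -0.13). Tnnc1, the slow and cardiac calcium sensor, had 1 read in mutant replicate 2 and 0 in the other 5 libraries.

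**Figure D2:**
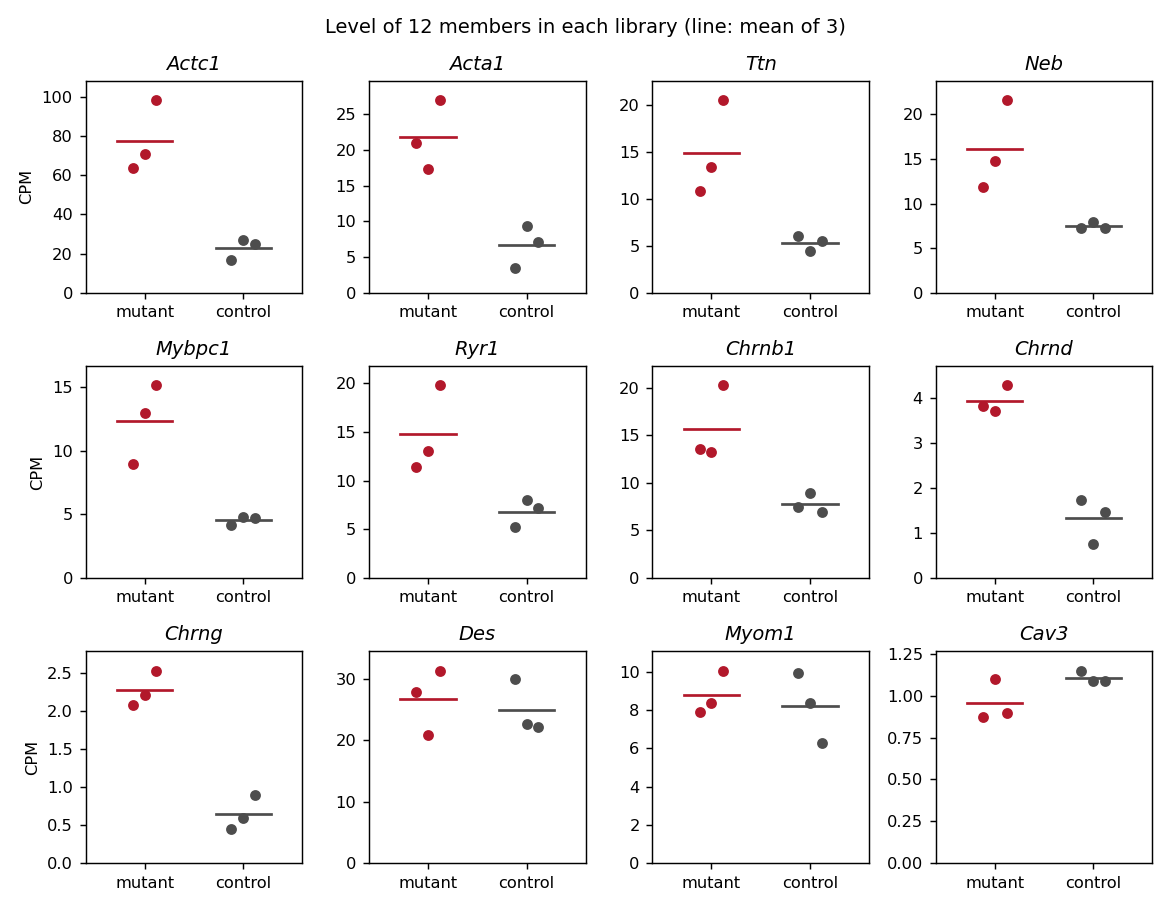
CPM of 12 members in each mutant (red, left) and control (grey, right) library, with the group mean as a line and each vertical axis starting at 0. In 9 genes the 3 mutant points lie above the 3 control points, and in Des, Myom1 and Cav3 the groups overlap.

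Levels per kilobase of transcript give each isoform's share of its family. Early isoforms took the largest share of myosin heavy chain and actin in both genotypes, whereas slow Tnnt1 led troponin T and fast Tnni2 led troponin I. Myh3 and Myh8 together made up most of the sarcomeric myosin heavy chain reads per kilobase: Myh3 took 60.5% ± 3.59 in mutant cells and 65.1% ± 3.3 in control cells, and Myh8 35.1% ± 3.83 in mutant cells and 24.1% ± 4.17 in control cells (SD, n = 3 each). The adult fast chain Myh2 took 1.43% ± 0.459 in mutant cells and 5.77% ± 1.18 in control cells, on 3, 4 and 3 reads in mutant libraries and 10, 5 and 6 reads in control libraries. Myh1, Myh4 and the slow chain Myh7 each stayed under 0.53 CPM in every library. Actc1 took 77.7% ± 2.63 of the sarcomeric actin in mutant cells and 78% ± 4.43 in control cells, a difference within the spread of the libraries. Among troponin T genes, Tnnt1 took 42.3% ± 5.73 in mutant cells and 55.4% ± 4.17 in control cells, Tnnt2 33.1% ± 2.23 in mutant cells and 24.9% ± 6.36 in control cells, and Tnnt3 24.7% ± 4.61 in mutant cells and 19.6% ± 3.53 in control cells. The range of Tnnt1 did not overlap between the groups, from 38.6% to 48.9% in mutant libraries against 51.8% to 60% in control libraries. Tnni1 took 35.8% ± 10.2 of troponin I in mutant cells and 37.9% ± 6.29 in control cells, a difference within the spread of the libraries. These shares belong to the same comparison that chose the genes and were not tested.

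**Figure D3:**
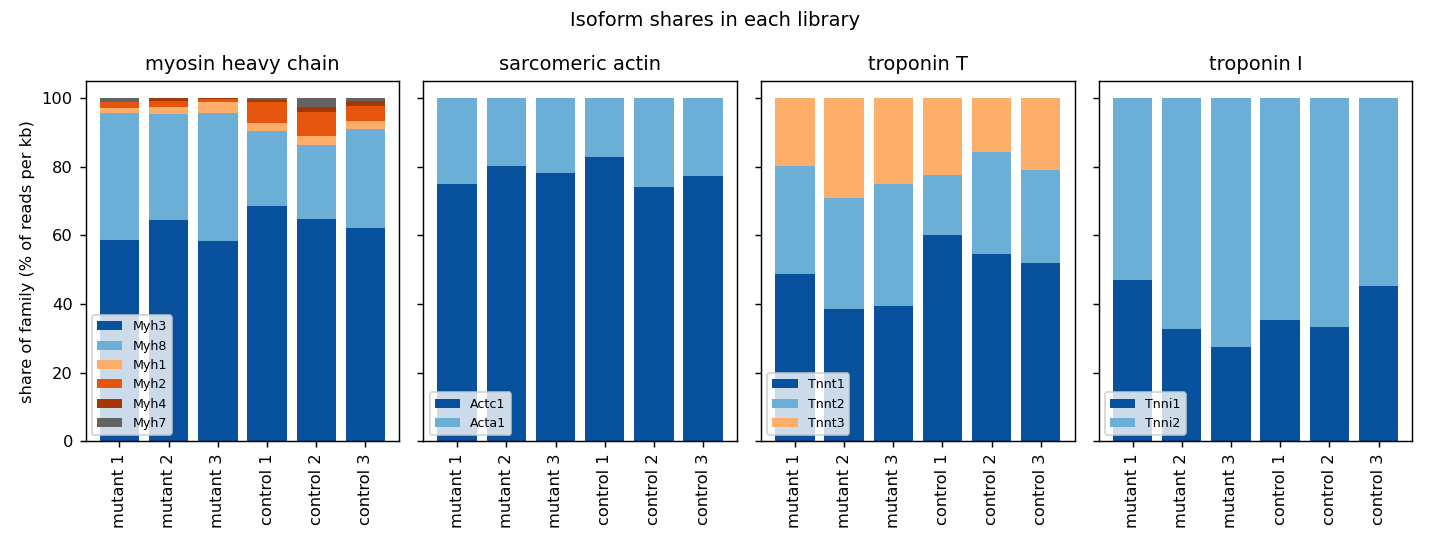
Share of each isoform in the reads per kilobase of its family, in percent, for the 3 mutant libraries (left) and the 3 control libraries (right). Embryonic Myh3 and perinatal Myh8 fill most of the myosin bars, and Actc1 takes 74.1% to 82.8% of the actin bars in all 6 libraries.

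Of the 5 genes that scaffold the sarcomere, 2, titin and alpha-actinin, were called higher, beside 8.63% of all genes tested. The intermediate filament gene Des and the M-band gene Myom1 were not called, and Myom2 was not tested. Ttn, titin, the elastic protein spanning half-sarcomeres, had 10.8, 13.4 and 20.5 CPM in mutant libraries and 6.08, 4.45 and 5.51 CPM in control libraries (log2 fold change 1.48, SE 0.24). Actn2, which crosslinks actin at the Z disc of muscle, averaged 2.6 ± 0.724 CPM in mutant cells and 0.899 ± 0.168 CPM in control cells (1.53, SE 0.30). Des, desmin, an intermediate filament protein that mural cells make as well, had 27.9, 20.9 and 31.4 CPM in mutant libraries against 30, 22.6 and 22.2 CPM in control libraries. The groups overlapped throughout, and its log2 fold change of 0.10 (SE 0.17) was not called. Myom1, which links thick filaments at the M band, had 7.92, 8.39 and 10.1 CPM in mutant libraries and 9.93, 8.39 and 6.27 CPM in control libraries (0.11, SE 0.18). Myom1 shares 207 bases of annotated exon with Myl12a on the other strand, which had 204 ± 19.6 CPM in mutant cells and 190 ± 9.79 CPM in control cells (0.10, not called). Whether this overlap added reads to the Myom1 counts or took reads from them was not tested. Myom2 was too low to be tested, with 0.455 to 1.21 CPM in mutant libraries and 0.384 to 0.512 CPM in control libraries.

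Genes that fold, turn over and fuel the sarcomere followed the filaments in 4 of 5 cases, beside 8.63% called higher of all genes tested. Unc45b, the myosin chaperone, had 4.76, 3.77 and 5.44 CPM in mutant libraries and 1.22, 1.85 and 1.47 CPM in control libraries (log2 fold change 1.64, SE 0.24). Klhl41, a kelch protein that stabilises nebulin, had 2.82, 3.32 and 4.91 CPM in mutant libraries against 0.897, 1.59 and 2.18 CPM in control libraries (1.25, SE 0.32; not called without control replicate 2, 1.27, or mutant replicate 3, 0.98). Ckm, the muscle creatine kinase, had 2.82, 2.47 and 4.01 CPM in mutant libraries and 0.192, 1.18 and 1.34 CPM in control libraries (1.80, SE 0.48). In all 3 genes the mutant libraries lay above the control libraries. The call of Ckm was not made without control replicate 2 (2.01) or mutant replicate 1 (1.86), 2 (1.94) or 3 (1.56). Smyd1, a methyltransferase of myofibril assembly, averaged 1.48 ± 0.356 CPM in mutant cells and 0.547 ± 0.33 CPM in control cells (1.35, SE 0.42). Its call was the least firm of the members: it was not made with DESeq2 (1.39) or limma-voom (1.49), with the replicate number as a block (1.36), without control replicate 2 (0.99) or 3 (1.54), or without mutant replicate 1 (1.41), 2 (1.15) or 3 (1.49). Klhl40, the close relative of Klhl41, had a log2 fold change of -0.21 (SE 0.30) and was not called, with 0.872 to 1.1 CPM in mutant libraries and 1.01 to 1.34 CPM in control libraries.

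The triad was the least complete structure: 5 of its 8 genes could be tested and 2 of these, the calcium release channel and the calcium pump, were called higher. The share called higher over all genes tested was 8.63%. Ryr1, the ryanodine receptor of skeletal muscle, had 11.4, 13.1 and 19.8 CPM in mutant libraries and 5.19, 8.05 and 7.17 CPM in control libraries (log2 fold change 1.13, SE 0.23; not called without control replicate 3, 1.18). Atp2a1, the fast-fibre calcium pump SERCA1, had 5.1, 3.97 and 6.07 CPM in mutant libraries against 1.41, 2.6 and 2.75 CPM in control libraries (1.17, SE 0.26; not called without mutant replicate 3, 1.01). Atp2a1 shares annotated exon sequence with Rabep2 on the other strand, which was not called (0.16). Stac3, an adaptor of the voltage sensor and the release channel, had 4.7, 6.24 and 6.71 CPM in mutant libraries and 4.1, 4.78 and 3.9 CPM in control libraries. The lowest mutant value lay just below the highest control value, and the log2 fold change of 0.47 (SE 0.19) was not called. Casq1, the calcium-binding protein of the store, had 0.56 (SE 0.47) and was not called. Cav3, the muscle caveolin, had 0.872, 1.1 and 0.897 CPM in mutant libraries and 1.15, 1.09 and 1.09 CPM in control libraries (-0.22, SE 0.30), also not called. Low counts kept the other 3 out of the test. Cacna1s, the voltage sensor itself, had 6, 8 and 15 reads in mutant libraries and 4, 5 and 7 reads in control libraries. Its gamma subunit gene Cacng1 had 9, 10 and 13 reads in mutant libraries and 2, 4 and 5 reads in control libraries. Trdn, triadin, had 2, 2 and 5 reads in mutant libraries and 1, 0 and 0 reads in control libraries.

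At the neuromuscular junction 4 of 6 genes were called higher, beside 8.63% of all genes tested, in a list chosen because muscle genes rose. The called genes included 3 of the 4 subunit genes of the fetal acetylcholine receptor. Differences between the subunits' fold changes were not tested. Chrng, the gamma subunit of the fetal receptor, had 2.08, 2.21 and 2.53 CPM in mutant libraries and 0.448, 0.587 and 0.896 CPM in control libraries (log2 fold change 1.80, SE 0.32). Chrnd, the delta subunit, averaged 3.94 ± 0.301 CPM in mutant cells and 1.32 ± 0.505 CPM in control cells (1.54, SE 0.27). The beta subunit gene Chrnb1 had 13.6, 13.3 and 20.3 CPM in mutant libraries and 7.49, 8.89 and 6.91 CPM in control libraries (1.03, SE 0.18). Chrna1, which encodes the acetylcholine-binding alpha subunit, had 11.3, 10.6 and 11.9 CPM in mutant libraries against 8.45, 9.31 and 9.41 CPM in control libraries. Its groups did not overlap, yet the log2 fold change was 0.32 (SE 0.13) and it was not called. Rapsn, rapsyn, which clusters the receptor, averaged 3.87 ± 0.989 CPM in mutant cells and 1.43 ± 0.581 CPM in control cells (1.44, SE 0.31). Musk, the kinase that organises the junction, had 4.09, 3.32 and 5.33 CPM in mutant libraries and 2.05, 4.45 and 2.05 CPM in control libraries. Control replicate 2 lay within the mutant range, and Musk was called only without that library (1.05 against 0.61 with all 6). Chrne, the epsilon subunit that replaces gamma in adult fibres, had 1, 0 and 2 reads in mutant libraries and 0, 0 and 1 reads in control libraries.

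Some members lie near each other in the genome (distances from the GRCm38 annotation, GENCODE M21). Chrnd and Chrng are neighbours on chromosome 1, 4.59 kb apart on the same strand with no protein-coding gene between them, and had log2 fold changes of 1.54 and 1.80. Tnni1 and Tnnt2 lie 25.4 kb apart on chromosome 1 (1.32 and 1.27), and Tnni2 and Tnnt3 54.4 kb apart on chromosome 7 (1.55 and 1.12). Each of these pairs has 1 protein-coding gene between its members. Myh3 and Myh8 lie 175 kb apart on chromosome 11 within the myosin heavy chain cluster, with 3 protein-coding genes between them, and had 0.69 and 1.33. Myh1, Myh2 and Myh4 of that cluster had at most 10 reads in any library.

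The myogenic factors bind E-boxes, with the letters CANNTG, and MyoD and myogenin favour the form CAGCTG, which is counted in CANNTG as well. In the 250 bases before the RefSeq gene start (GRCm38.p6, 32 of the 41 members matched), 28 members held CANNTG, 87.5%, against 69.3% of 27025 genes, with each motif counted on both strands unless said otherwise. The form CAGCTG occurred in 18 of the 32, 56.2%, against 14.7% of all genes. It was found in 10 of 19 members called higher (52.6%) and in 8 of 13 members not called or not tested (61.5%). A MEF2 site was found before Klhl41, Myh8 and Ttn, 9.38% of the members against 3.42% of all genes, and a CArG box, bound by serum response factor, before Acta1, Actc1 and Myom1 (9.38% against 1.62%). The letters TATAAA, read on the gene's own strand, occurred in 9.38% of members and 8.94% of all genes. A match is a description of letters and does not show binding. Below stand 3 receptor subunits with log2 fold changes from 0.32 to 1.80, both sarcomeric actins and Cav3, which was not called; capitals mark every CANNTG and CArG match, and each run ends at the base before the gene start. The regions are chr2:73580339-73580588 on the minus strand for Chrna1, chr11:69795938-69796187 on the minus strand for Chrnb1, chr1:87205561-87205810 on the plus strand for Chrng, chr8:123894776-123895025 on the minus strand for Acta1, chr2:114052876-114053125 on the minus strand for Actc1 and chr6:112459255-112459504 on the plus strand for Cav3.
Chrna1: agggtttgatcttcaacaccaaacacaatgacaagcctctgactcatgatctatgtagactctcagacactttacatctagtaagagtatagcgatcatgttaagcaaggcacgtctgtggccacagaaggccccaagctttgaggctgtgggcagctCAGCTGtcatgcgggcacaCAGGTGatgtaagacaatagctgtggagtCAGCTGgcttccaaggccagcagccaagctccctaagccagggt
Chrnb1: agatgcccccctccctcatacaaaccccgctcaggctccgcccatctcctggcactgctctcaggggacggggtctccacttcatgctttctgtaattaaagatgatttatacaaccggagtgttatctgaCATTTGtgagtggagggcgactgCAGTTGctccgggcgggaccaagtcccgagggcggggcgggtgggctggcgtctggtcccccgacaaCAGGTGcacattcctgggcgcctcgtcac
Chrng: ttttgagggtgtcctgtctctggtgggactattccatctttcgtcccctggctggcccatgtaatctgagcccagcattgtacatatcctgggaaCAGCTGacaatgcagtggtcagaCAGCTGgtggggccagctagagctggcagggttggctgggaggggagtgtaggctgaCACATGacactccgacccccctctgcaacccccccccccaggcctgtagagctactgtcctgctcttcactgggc
Acta1: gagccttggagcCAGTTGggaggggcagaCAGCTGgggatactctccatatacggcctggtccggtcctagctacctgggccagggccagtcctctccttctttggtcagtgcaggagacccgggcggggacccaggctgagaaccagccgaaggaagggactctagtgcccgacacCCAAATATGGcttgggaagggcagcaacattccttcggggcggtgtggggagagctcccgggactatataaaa
Actc1: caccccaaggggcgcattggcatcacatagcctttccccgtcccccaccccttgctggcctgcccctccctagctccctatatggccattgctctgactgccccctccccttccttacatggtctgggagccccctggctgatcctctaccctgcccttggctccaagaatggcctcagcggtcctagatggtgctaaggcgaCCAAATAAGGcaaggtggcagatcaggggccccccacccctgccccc
Cav3: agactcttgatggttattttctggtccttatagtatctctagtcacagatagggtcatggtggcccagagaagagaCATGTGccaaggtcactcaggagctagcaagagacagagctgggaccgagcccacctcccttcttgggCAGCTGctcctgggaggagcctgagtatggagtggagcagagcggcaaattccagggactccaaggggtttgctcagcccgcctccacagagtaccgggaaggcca

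In these letters, Chrna1 had CAGCTG at 92 and 44 bases before the start and Chrng at 155 and 132 bases, so the subunit that was not called and the one with the highest fold change of the receptor both held the form in 2 places. Chrnb1 held 3 E-boxes of other forms, at 119, 96 and 29 bases. Acta1 held a CArG box 73 bases and Actc1 one 47 bases before the start, and Cav3 held CAGCTG at 106 bases.

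**Figure D4:**
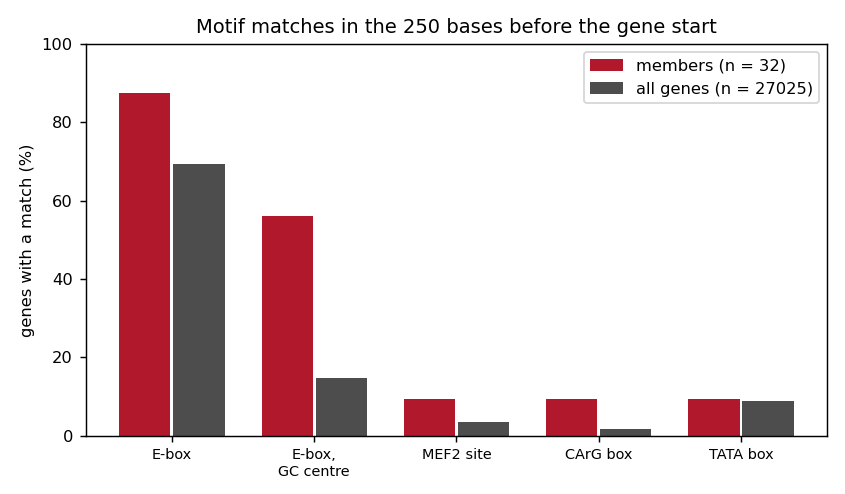
Percent of genes with at least 1 motif match in the 250 bases before the gene start, for 32 members (red) and all 27025 genes (grey). The E-box with a GC centre is found in 56.2% of members and 14.7% of all genes.

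Other genes of the same structures, listed by role, were called in both directions. Over the other sarcomere, triad and junction genes together, 7 of 48 tested were called higher and 7 lower. Across all genes tested, 8.63% were called higher and 9.13% lower. Of 44 further sarcomere genes, 20 were tested, 3 were called higher and 2 lower, with a median log2 fold change of -0.14 over the 20 beside 0.01 over all genes tested. With no filter the sign turned, and the median was 0.15 over 42 genes. The 24 others had too few reads, and Xirp2 and Nrap had none in any library. Trim55, a ligase of the M band, rose to 1.4 ± 0.304 CPM in mutant cells against 0.339 ± 0.143 CPM in control cells (log2 fold change 2.08, edgeR adjusted p = 0.00544). Actn3, the alpha-actinin of fast fibres (1.02, edgeR adjusted p = 0.0399), and Obsl1 (0.25, 0.0401), both chosen after their values were seen, were also called higher. Lower were Tpm1, a tropomyosin that smooth muscle and non-muscle cells make too, with 236 ± 12.9 CPM in mutant cells and 314 ± 25.7 CPM in control cells (-0.42, edgeR adjusted p = 0.00608), and Nexn, an actin-binding protein (-0.48, 0.0381). Nexn was not called without control replicate 1 (-0.44) or 3 (-0.37), mutant replicate 1 (-0.52), 2 (-0.39) or 3 (-0.53), or with limma-voom (-0.48). Actn3 was not called with limma-voom (1.00), with the replicate block (0.98), or when any 1 library other than mutant replicate 2 was left out. Its log2 fold change was 1.04, 1.19 and 0.84 without control replicates 1, 2 and 3 and 1.07 and 0.67 without mutant replicates 1 and 3. Obsl1 was called without control replicate 1 alone among the 6 omissions and otherwise had 0.28 and 0.19 without control replicates 2 and 3 and 0.28, 0.23 and 0.24 without mutant replicates 1, 2 and 3.

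Some genes of calcium release and uptake outside the member list were lower in mutant cells, Ryr3 and Casq2 among them. Of 22 further triad and excitation genes 17 were tested, 2 were called higher and 4 lower (median log2 fold change -0.01, and 0.03 over 21 genes with no filter). The shares over all genes tested were 8.63% higher and 9.13% lower. Ryr3, a ryanodine receptor that smooth muscle also uses, had 10.4, 9.69 and 7.55 CPM in mutant libraries against 21.8, 23.8 and 26.1 CPM in control libraries (log2 fold change -1.38, edgeR adjusted p = 9.27e-05). Casq2, the calsequestrin of heart, slow muscle and smooth muscle, had 5.64, 3.12 and 6.18 CPM in mutant libraries against 18.6, 11.6 and 20.8 CPM in control libraries (-1.77, edgeR adjusted p = 0.0082). In both, every mutant library lay below every control library. Kcnj2, an inward rectifier potassium channel, averaged 4.82 ± 0.407 CPM in mutant cells and 10.6 ± 1.04 CPM in control cells (-1.14, edgeR adjusted p = 0.000675). Chosen after their values were seen, Ryr2, the cardiac ryanodine receptor, had 4.53 ± 1.1 CPM in mutant cells and 9.6 ± 0.957 CPM in control cells (-1.07, edgeR adjusted p = 0.0032), and Atp2a2, the pump of most other cells, 256 ± 12.2 and 299.5 ± 7.14 CPM (-0.23, edgeR adjusted p = 0.0492). Atp2a2 was not called when any 1 library was left out (-0.19 to -0.27). Jsrp1, a protein of the junctional store membrane in skeletal muscle, rose (1.06, edgeR adjusted p = 0.0136; not called without control replicate 3, 0.98, or mutant replicate 3, 0.86), and so did Stim1 (0.23, 0.0416; not called when any 1 library was left out, 0.21 to 0.24). Whether paralogs differed in response was not tested as such.

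**Figure D5:**
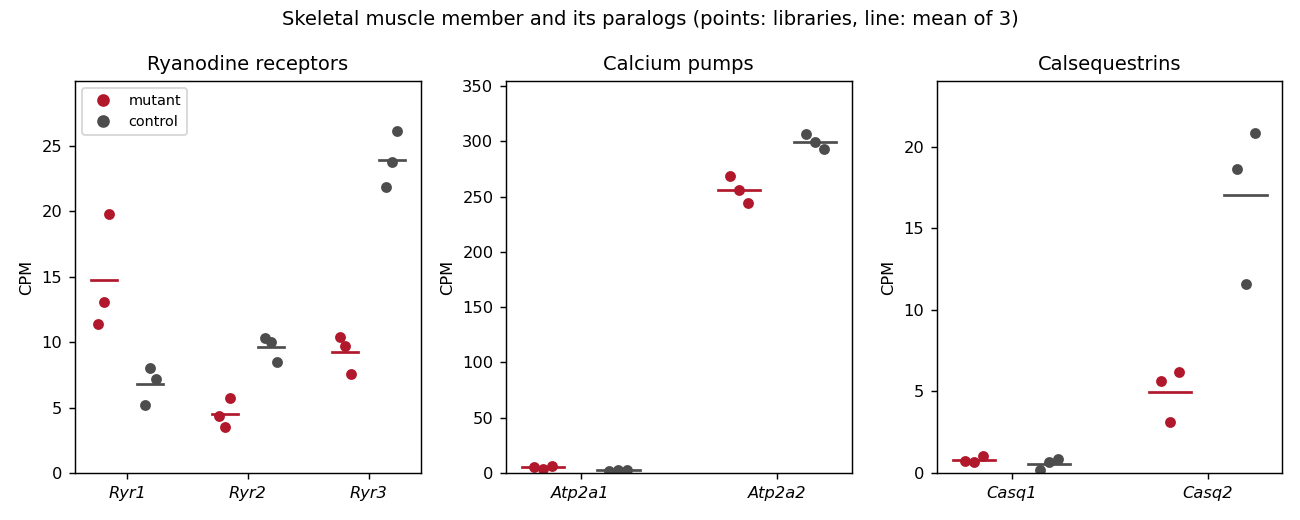
CPM in each library for the ryanodine receptors, calcium pumps and calsequestrins, mutant (red) left of control (grey) for each gene, with group means as lines and axes from 0. Ryr1 is higher in mutant libraries, while Ryr2, Ryr3, Atp2a2 and Casq2 are lower in every mutant library.

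Among other genes of the neuromuscular junction, 13 of 14 listed symbols were matched, 11 were tested, 2 were called higher and 1 lower (median 0.01). The shares over all genes tested were 8.63% higher and 9.13% lower. Dok7, the adaptor that activates MuSK from inside the muscle fibre, had 3.96, 4.29 and 5.75 CPM in mutant libraries against 1.92, 2.43 and 2.05 CPM in control libraries (log2 fold change 1.14, edgeR adjusted p = 0.00578). Etv5, a transcription factor of the junction and of receptor tyrosine kinase signalling, had 54.8 ± 7.21 CPM in mutant cells and 43.6 ± 2.06 CPM in control cells (log2 fold change 0.33, edgeR adjusted p = 0.0343), a call not made without control replicate 1 (0.33), 2 (0.36) or 3 (0.29) or mutant replicate 2 (0.22). Ncam1, a cell adhesion molecule also made by glia and other cells, fell by 0.34 on the log2 scale (edgeR adjusted p = 0.0108; -0.29 without mutant replicate 3, where it was not called). Neither Agrn, the nerve-derived organiser (log2 fold change 0.05), nor its receptor gene Lrp4 (-0.03) was called, and both are named here with their values known.

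Markers of myoblasts and satellite cells were divided. Of 15 listed, 14 were tested, 7 were called higher and 2 lower, beside 8.63% and 9.13% of all genes tested. Their median log2 fold change was 0.89 over the 14 tested, and the list summed to 447 to 553 CPM in mutant libraries and 402 to 457.5 CPM in control libraries. The most abundant, Fgfr4 and Heyl, are also made by other cells and had log2 fold changes of -0.43 and 0.20. Also chosen after their values were seen, Chodl had 35.4 ± 4.6 CPM in mutant cells and 58 ± 7.03 CPM in control cells (log2 fold change -0.71, called lower), and Pax3, a factor of muscle precursors and pigment cells, was not called (-0.27). Pax7, Myog, Mymx and Myf6 were likewise named with their values known. The muscle stem cell factor Pax7 was called higher and had 16.3, 15.9 and 24.7 CPM in mutant libraries and 7.62, 10.2 and 9.22 CPM in control libraries. Myog, myogenin, had 32.5, 47.5 and 59.2 CPM in mutant libraries against 9.73, 15.5 and 15.4 CPM in control libraries (log2 fold change 1.79; not called without mutant replicate 2, 1.77). The fusion gene Mymx had 5.57, 2.93 and 4.12 CPM in mutant libraries against 0.448, 0.755 and 1.22 CPM in control libraries. Myf6, a factor of mature fibres, had 3 reads or fewer in every library. Of 9 cardiac markers 7 were too low to be tested and Gata4 was at 0 in all libraries; of the rest, Ryr2 fell and Tnni3 had 1.41 ± 0.612 CPM in mutant cells and 1.57 ± 0.255 CPM in control cells. The part of these cell types in the members' levels was not tested.

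Markers of other cell types were also called, where 8.63% of all genes tested were called higher and 9.13% lower. In lists this short, a count of 1 or 2 calls is not far from those shares, which says nothing of how large a called change was. Of 8 endothelial markers 5 were called higher (summed 246 to 342 CPM in mutant libraries and 139 to 174 CPM in control libraries; Kdr 0.84 and Cdh5 0.77 on the log2 scale, the second not called). Of 9 smooth muscle markers 3 were called lower and 0 higher by edgeR (0 higher also unadjusted, with DESeq2 and with limma-voom; summed 602 to 859 CPM in mutant libraries and 1014 to 1411 CPM in control libraries), with Mylk at -0.81 (not called without control replicate 3, -0.85) and Acta2, not called, at -0.44. Of 11 pericyte markers 2 were called higher, Kcnj8 at 1.47 and Abcc9 at 0.85, both named with their values known. The most abundant, Rgs5 and Notch3, had -0.72 and 0.33 and were not called. Fibroblast markers counted 2 lower of 10 (summed 104500 to 124700 CPM in mutant libraries and 119400 to 134800 CPM in control libraries). These were Pdgfra at -1.24 and Dpp4 at -0.59, also named with their values known. The most abundant, Col3a1 at -0.12 and Col1a1 at -0.26, were not called. Adipocyte markers counted 1 higher of 7 tested (769 to 1460 CPM in mutant libraries and 551 to 756 CPM in control libraries), with Fabp4 at 0.84 called and Lpl at 0.63 not. Fabp4 was not called without control replicate 1 (0.74) or 2 (0.78) or mutant replicate 3 (0.90). Schwann cell markers had a median log2 fold change of -0.22 over the 7 tested. Ngfr among them was called higher at 0.33 (0.24 to 0.31 and no call when control replicate 1, mutant replicate 1 or mutant replicate 3 was left out). Erythroid markers reached 6.11 to 13.8 CPM in mutant libraries and 1.54 to 5.12 CPM in control libraries, with Hbb-bs at 1.63 and Hba-a1 at 1.42 and none called by edgeR (2 at an unadjusted p under 0.05, 2 with DESeq2, 1 with limma-voom). Genes of the dissociation response summed to 7057 to 8120 CPM in mutant libraries and 3839 to 5934 CPM in control libraries. Jun at 0.58 was called higher and Fos, at 0.74, was not called. Called lower, and named with their values known, were Hspa1a at -1.86 and Hspa1b at -2.40, with every mutant library below every control library. The part of these markers and of the dissociation response in the members' levels was not tested.

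The mutant libraries differed among themselves, and 1 library, mutant replicate 3, was highest for most members. That library also had the most gene counts (18792939) and the largest share of reads in rows that name no gene (41.7%). The part of either in the members' levels was not tested. Mutant replicate 3 was the highest of the mutant libraries in 31 of the 36 tested members, against 32.8% of all genes tested, and the members lay on average 0.29 above their group mean there on the log2 scale (SD over members 0.19). In mutant replicates 1 and 2 they lay 0.16 (SD 0.17) and 0.12 (SD 0.17) below it. Control libraries showed no such leader: control replicates 1, 2 and 3 were the highest in 11, 11 and 14 members, with mean deviations of -0.15 (SD 0.44), 0.02 (SD 0.37) and 0.13 (SD 0.28). Control levels rest on fewer reads, which limits these deviations. Without mutant replicate 3 the members called higher numbered 17 and the median over the tested members was 1.01, against 24 and 1.26 with all 6 libraries. Calls over all genes fell as well, to 658 higher without that library against 1298 with all 6 libraries.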

How the data were processed

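RNA-seq libraries of sorted Nestin-GFP-positive cells came from 3 mutant and 3 control mice. For every library the authors deposited whole-number counts of reads per Ensembl gene. The submitters' processing notes list mm9 as genome build and name TopHat2 2.0.4, HTSeq 0.5.3, cutadapt 1.1, FastQC and DESeq2, giving neither their order nor what each did. Whether counting used strand is not stated by those sources, and 16 members share annotated exon sequence with another gene, always on the other strand. The 5 rows that name no gene took 36.9% to 41.7% of reads and stayed out of library sizes and tests. Symbols were matched by identifier for 32919 of 37991 rows; Syne1 of the lists was not matched.

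After filterByExpr (minimum count 10, minimum total 15) and TMM scaling, group was the only term of a robust quasi-likelihood F test in edgeR 4.0.16 (R 4.3.3), with Benjamini-Hochberg adjustment over all 15035 genes and a threshold of 0.05. Log2 fold changes are mutant over control. Log2 deviations used a prior count of 2. Levels per kilobase used the APPRIS principal transcript of GENCODE M21. Alternatives were DESeq2 1.42.0 and its size factors, limma-voom (limma 3.58.1), no filter, each library left out and a replicate block; the length of all annotated exons was added after seeing the data.

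Members and lists were chosen with earlier results of these data known. Values per library are given for the 3 most abundant members of each class and for isoform families, for other muscle lists the 3 called genes with the smallest adjusted p, and for marker lists the 2 most abundant genes. The marker lists are those of myoblast and satellite cells, cardiac muscle, pericytes, smooth muscle, fibroblasts, adipocytes, endothelium, Schwann cells, erythroid cells and the dissociation response. One result of the Schwann cell list is not reported here.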

Additional observations from a re-analysis of the deposited data

How the results depend on the processing

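No alternative reversed the direction of a called gene among the members or the other named genes. Of the single-member results under alternatives, 366 kept their side of the threshold, 24 lost a call and 6 gained one. Members called higher numbered 20 to 25 in every alternative except without mutant replicate 3 (17), 24 with DESeq2, its size factors or no filter, and 23 with limma-voom or the replicate block; leaving out 1 library gave 17 to 25. Their median ranged from 1.01 to 1.39. Calls over all genes ranged, with 1 library left out, from 658 to 1199 higher and from 753 to 1500 lower. With 1 library left out, other sarcomere genes called higher numbered 1 to 2 and lower 1 to 2, other triad genes 0 to 2 higher, and other junction genes 1 to 2 higher and 0 to 2 lower. Limma-voom left 1 other sarcomere gene lower, and no filter, DESeq2 and the replicate block each left 1 other triad gene higher. The labels do not say whether the replicate numbers pair the mice, and these correlations cannot decide it. Deviations of same-numbered libraries correlated at 0.117, -0.03 and -0.09, and those of differently numbered libraries at -0.101 to 0.158. With the block 23 members were called higher. With the length of all annotated exons, an alternative chosen after seeing the data, the Myh3 share was 72.9% in mutant cells and 74.7% in control cells, the Tnnt1 share 48.7% in mutant cells and 61.2% in control cells, and the Tnni1 share 27.7% in control cells, which was 47.7% with no division by length; annotated exons beyond the main transcript lengthen Myh8, Tnnt2 and Tnni1. Depth kept 5 of the 41 members out of the test, 3 of them triad genes.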
